A study of Mus musculus with 10 samples.

Results

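The 9 genes described here, Atoh1, Neurog1, Neurog2, Neurog3, Neurod1, Neurod2, Olig1, Olig2 and Olig3, encode basic helix-loop-helix (bHLH) transcription factors of the neural lineages. They were chosen by name, with earlier results of these data known, from 22367 protein-coding genes of the GENCODE vM1 annotation on mm9. Each gene was examined over its body plus 5 kb on each side (the gene window) for the sites of 4 lists that overlap it by at least 1 bp. The lists come from ChIP-seq in mouse embryonic stem cells (ESCs), which sequences DNA pulled down with an antibody, and comprise 8876 Suz12 sites, 5722 Suz12-depleted sites, 5242 Pcl3 sites and 678 H3K27me3-depleted sites. Suz12-TAP was pulled down with a FlagM2 antibody, and H3K27me3 with an antibody from Upstate, in ESCs of the BayGenomics gene trap line XG122 of genotype Suz12 Suz12TAP/+, which carry 1 tagged Suz12 allele and express either scramble shRNA or Pcl3 shRNA. The input library of the knockdown cells is titled Pcl3-shRNA and labelled Pcl3-shRNA6. Pcl3-TAP was pulled down with FlagM2 in E14 ESCs that express Pcl3-TAP together with shRNA6 or shRNA7 against wild-type Pcl3, so the Pcl3 sites come from another cell line and from tagged Pcl3 supplied by a transgene. The knockdown cells were clones picked after lentiviral infection. Of 10 libraries, 6 were ChIP and 4 were input, and each condition was represented by 1 library, save that Pcl3-TAP and its input had 2 each but share a single deposited list. No value therefore has a replicate error, and no comparison between conditions was tested across replicates. The authors' depleted calls compare 1 Pcl3 shRNA library with 1 scramble library. Every p-value given below is the Skellam p-value of 1 site, from reads of these libraries, as deposited. The lists hold no read counts, so the depth behind each site is unknown, and no RNA levels, so the identity of the cells could not be checked by their transcripts.

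The proneural factors Atoh1 and Neurog1 to Neurog3 commit progenitors to a neuronal (or, for Neurog3, pancreatic endocrine) fate, the Neurod factors act later in neuronal differentiation, and the Olig factors specify oligodendrocytes, motor neurons and dorsal spinal cord neurons. These proteins bind E-boxes, of the form CANNTG, usually as dimers with E proteins, and Notch signalling represses several of them through Hes factors. In ESCs such lineage genes are known targets of Polycomb repressive complex 2 (PRC2), of which Suz12 is a core subunit and Pcl3 an accessory subunit, and which trimethylates lysine 27 of histone H3 (H3K27me3). PRC2 in mammals binds mainly at stretches rich in CpG.

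The sequences just upstream of 4 of the gene starts are shown first because they span the range of CpG content among the 9 genes and the range of binding at the start. Each is the 150 bases before the annotated start on the gene's strand, read 5′ to 3′ from mm9, with every CpG in capitals. Neurog1 lies on the minus strand (chr13:56353525-56353674) and has 16 CpG in this stretch, Olig2 on the plus strand (chr16:91225645-91225794) has 13, Neurod1 on the minus strand (chr2:79296909-79297058) has 7, and Olig3 on the plus strand (chr10:19076216-19076365) has 2.

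Neurog1: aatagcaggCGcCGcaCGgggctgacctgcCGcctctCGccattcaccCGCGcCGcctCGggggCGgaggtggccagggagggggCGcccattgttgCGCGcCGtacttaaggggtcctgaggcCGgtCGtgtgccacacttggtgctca

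Olig2: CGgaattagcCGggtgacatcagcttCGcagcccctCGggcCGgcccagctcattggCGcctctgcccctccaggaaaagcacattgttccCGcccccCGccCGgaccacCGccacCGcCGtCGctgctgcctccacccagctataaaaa

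Neurod1: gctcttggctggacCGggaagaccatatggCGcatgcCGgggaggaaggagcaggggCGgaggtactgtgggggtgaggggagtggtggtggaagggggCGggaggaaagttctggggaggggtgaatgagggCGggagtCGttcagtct

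Olig3: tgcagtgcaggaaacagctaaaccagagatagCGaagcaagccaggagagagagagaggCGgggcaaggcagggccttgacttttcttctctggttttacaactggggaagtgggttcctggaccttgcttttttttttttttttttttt

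The stretches of Neurog1 and Olig2 lay wholly inside a Suz12 site and a Pcl3 site. That of Neurod1 lay inside a Suz12 site but not inside a Pcl3 site, and that of Olig3 was only partly covered by either. The median over the 9 genes was 11 CpG per 150 bases, against 10.0 at the 6442 genes with a Suz12 site and 6.00 over all protein-coding genes. The E-box pattern CANNTG, which reads the same on both strands, occurred in 4 of the 9 stretches (Neurog1, Neurod1, Neurod2 and Olig3). It occurred in 44.6% of all promoters of this length and in 39.9% of those of genes with a Suz12 site. The CpG pattern GCGCGC, also the same on both strands, occurred at Neurog1 and Olig1, in 10.8% of all promoters and in 17.4% of those of genes with a Suz12 site.

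All 9 genes had Suz12, Suz12-depleted and Pcl3 sites in their windows, and 3 of them, Neurog3, Neurod2 and Olig2, also had H3K27me3-depleted sites. Over all protein-coding genes, 28.8% had a Suz12 site in the same window, 20.7% a Suz12-depleted site, 14.7% a Pcl3 site and 3.13% an H3K27me3-depleted site. A Suz12-depleted site is a Suz12 site with fewer Suz12-TAP reads in Pcl3 shRNA than in scramble cells by the deposited call, and an H3K27me3-depleted site is called in the same way from the H3K27me3 libraries. The windows of the 9 genes were short, from 11659 to 14234 bp against a median of 25427 bp over all genes. Of the 6442 genes with a Suz12 site, 71.7% had a Suz12-depleted site, 47.7% a Pcl3 site and 10.5% an H3K27me3-depleted site. Olig2, Neurog3 and Neurod2 were among the 500 genes (2.24%) with sites of all 4 lists, whereas the pattern of the other 6 genes, in all lists but the last, was held by 2370 genes (10.6%). These 500 genes were 17.4% of the 2870 genes in the Suz12, Suz12-depleted and Pcl3 lists.

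The 9 windows held 27 Suz12 sites, 28 Pcl3 sites and 6 H3K27me3-depleted sites. Suz12 sites covered a median of 5900 bp of a window, against 1400 bp over the genes with a Suz12 site, and 100% of a gene body, against 2.30%. In 6 of the 9 genes (Atoh1, Neurog1, Neurog3, Neurod2, Olig1 and Olig2) the whole body lay under Suz12 sites, which was so for 139 of the 6442 genes (2.16%). The bodies are short, from 1659 to 4234 bp, and shares of a body or window are lower in long genes for sites of the same width. Pcl3 sites covered the whole body of 7 of the 9 genes, and of 120 of the 6442 (1.86%). A Suz12 site lay over the start of all 9 genes and a Pcl3 site over 8 of the 9 starts, against 63.3% and 25.4% of the 6442 genes. The map of sites around the 9 gene starts shows these positions.

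**Figure D1:**
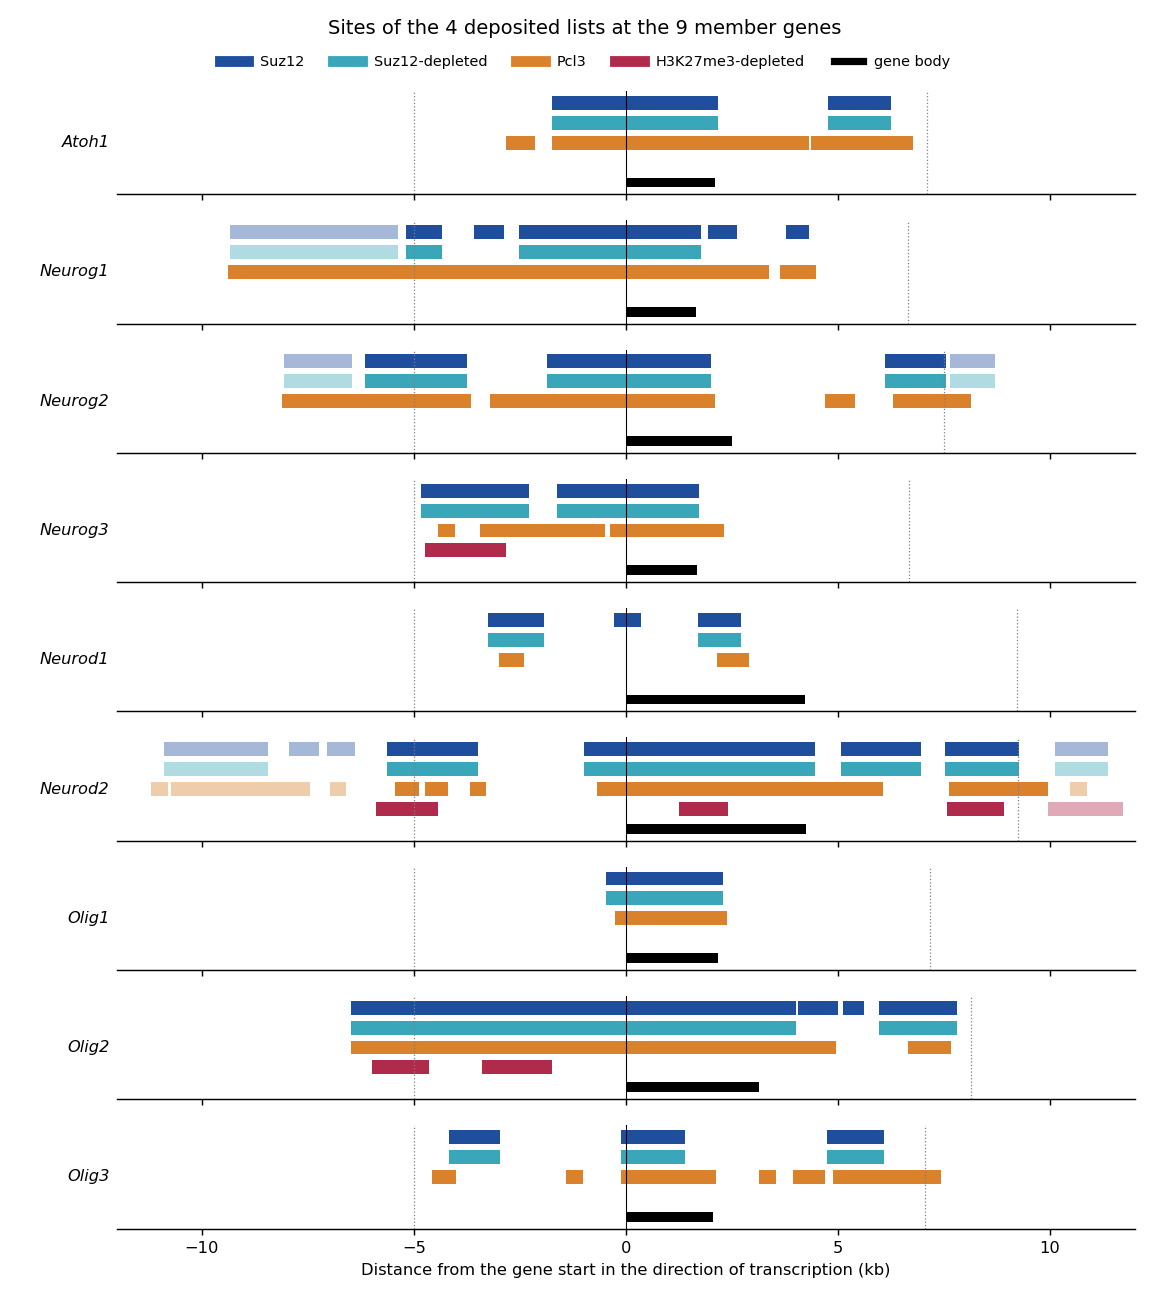
Sites of the Suz12, Suz12-depleted, Pcl3 and H3K27me3-depleted lists at the 9 genes, by distance from the gene start in kb along the direction of transcription. The vertical line is the start, the black bar the gene body, dotted lines the ends of the window of 5 kb on each side, and pale bars sites outside the window. A Suz12 site covers all 9 starts, a Pcl3 site covers all but that of Neurod1, and the H3K27me3-depleted sites of Neurog3, Neurod2 and Olig2 lie away from the starts.

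Atoh1, the proneural factor of cerebellar granule neurons, inner ear hair cells and intestinal secretory cells (chromosome 6 from 64679140 to 64681227, plus strand, a single exon), had 2 Suz12 sites, both in the depleted list. The first ran 3900 bp, from 1739 bp upstream to 2160 bp downstream of the start, and its p-value is written as 0, which stands for a value too small for the number format. The second, 1500 bp wide with a p-value of 6.45e-105, lay in intergenic DNA centered 5510 bp downstream of the start. Pcl3 covered more of the window than Suz12 did, 9150 bp against 5400 bp: a Pcl3 site of 6050 bp (p written as 0) began at the same base as the Suz12 site over the gene and ran 2150 bp further downstream, and another of 2400 bp (p-value 5.80e-124) spanned the second Suz12 site. A further Pcl3 site upstream, 700 bp wide (p-value 7.44e-10), shared no base with a Suz12 site. All Suz12 bases at Atoh1 were under Pcl3 sites, and no H3K27me3-depleted site lay within 50 kb.

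Neurog1, the proneural factor of cranial sensory ganglia (chromosome 13 from 56351866 to 56353524, minus strand), had 5 Suz12 sites, the most of the 9 genes, of which 2 were in the depleted list. The site over the gene was 4300 bp wide, with p written as 0, and reached from 2526 bp upstream to 1773 bp downstream of the start. The other depleted site, 850 bp wide (p-value 2.27e-24), lay 4751 bp upstream. The 3 sites outside the depleted list were small, 550 bp (p-value 1.74e-08), 700 bp (p-value 1.21e-10) and 700 bp (p-value 3.51e-13). All 5 lay entirely under Pcl3, mostly under a single Pcl3 site of 12750 bp with p written as 0, the 29th widest in the list, which began 9376 bp upstream of the start and ended 3373 bp downstream of it. This Pcl3 site was 2.97 times as wide as the Suz12 site over the start, but it also spanned other Suz12 sites. Among them was a depleted site of 3950 bp outside the window, centered 7351 bp upstream (p-value 1.27e-246) and wholly under this Pcl3 site. The ratio therefore does not show that Pcl3 spread that far beyond Suz12. The 550 bp Suz12 site lay under a separate Pcl3 site of 850 bp (p-value 2.27e-18). Depleted and non-depleted Suz12 sites of Neurog1 were thus alike in lying under Pcl3.

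Neurog2, which drives neurogenesis in the dorsal telencephalon and spinal cord (chromosome 3 from 127336054 to 127338549, plus strand), had 3 Suz12 sites, all in the depleted list. The site over the start was 3850 bp wide, with p written as 0, and was flanked by a site of 2400 bp centered 4954 bp upstream (p-value 6.34e-130) and a site of 1450 bp centered 6821 bp downstream (p-value 5.19e-58). Pcl3 formed 4 sites, 3 of which overlapped these 3 and the largest of which, 5300 bp, had a p-value of 2.95e-284. The fourth, 700 bp with a p-value of 1.19e-11, lay between Suz12 sites and shared no base with one. Suz12 bases were 96.9% under Pcl3.

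Neurog3, the proneural factor of pancreatic endocrine progenitors (chromosome 10 from 61595838 to 61597511, plus strand), overlaps the gene 2010107G23Rik. Neurog3 had 2 Suz12 sites, 3350 bp wide over the start (p-value 3.28e-212) and 2550 bp wide centered 3563 bp upstream (p-value 2.15e-114), and both were in the depleted list. Pcl3 was listed in 3 pieces, of 2700 bp over the start (p-value 1.50e-110), 2950 bp (p-value 8.09e-62) and 400 bp (p-value 7.96e-08). The H3K27me3-depleted site, 1900 bp wide with a p-value of 1.01e-13, lay wholly within the upstream Suz12 site and had 52.6% of its bases under Pcl3.

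Neurod1, which acts in neuronal and pancreatic endocrine differentiation (chromosome 2 from 79292678 to 79296908, minus strand), had the least Pcl3 of the 9 genes, 1350 bp, and Suz12 over 2950 bp of its window. A Suz12 site did cover its start, but this was a site of 650 bp with a p-value of 9.52e-12 that was outside the depleted list and shared no base with Pcl3. A larger site centered 2592 bp upstream (1300 bp, p-value 1.53e-36) and one in the coding exon centered 2208 bp downstream (1000 bp, p-value 4.16e-20) were both in the depleted list and both overlapped Pcl3 sites, of 600 bp and 750 bp. Neurod1 was the only one of the 9 genes whose start lay outside the Suz12-depleted and Pcl3 lists. Its 2 kb around the start also had the lowest CpG density of the 9, 3.10 per 100 bp, whereas the 650 bp site itself had 6.77 per 100 bp. Parts of Cerkl and of the noncoding RNA gene Gm17325 overlap the window, so its sites cannot be assigned to Neurod1 alone.

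Neurod2, a factor of cortical and cerebellar neurons (chromosome 11 from 98186729 to 98190962, minus strand), had 4 Suz12 sites covering 10584 bp, or 74.4% of its window, and all 4 were in the depleted list. The site over the gene was 5450 bp wide with p written as 0, and the others were 2150 bp (p-value 4.26e-98), 1900 bp (p-value 2.21e-49) and 1750 bp (p-value 1.52e-82). A Pcl3 site of 6750 bp, with p also written as 0, lay over the start and body, and 4 smaller ones lay elsewhere in the window. Within 50 kb on each side of the gene there were 14 Suz12 sites, more than at 99.0% of the genes with a Suz12 site, whose median was 2.00. The same 50 kb held 11 Pcl3 sites and 5 H3K27me3-depleted sites, and 3 of the latter overlapped the window.

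Olig1 and Olig2 start 44219 bp apart on chromosome 16, on the plus strand. Olig2, required for motor neurons and oligodendrocytes (91225795 to 91228922), had the broadest Suz12 coverage of the 9, 12306 bp or 93.7% of its window, a share above that of 99.9% of the genes with a Suz12 site. Its main Suz12 site, in the depleted list with p written as 0, was 10500 bp wide, the 20th widest of the list, and ran from 6494 bp upstream to 4005 bp downstream of the start. The Pcl3 site over it (p written as 0) began at the same base and was 11450 bp wide. A depleted Suz12 site of 1850 bp (p-value 3.85e-82) lay downstream, and between them were 2 sites outside the depleted list, of 950 bp (p-value 2.15e-21) and 500 bp (p-value 1.43e-09).

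Olig1, which acts in oligodendrocyte maturation (91270014 to 91272184), had a single Suz12 site and a single Pcl3 site. The Suz12 site was 2750 bp wide with a p-value of 7.06e-295 and was in the depleted list, and the Pcl3 site was 2650 bp wide with a p-value of 2.65e-97. Both covered the start and the whole gene.

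Olig3, a factor of dorsal spinal cord interneurons (chromosome 10 from 19076366 to 19078412, plus strand), had 3 Suz12 sites, all in the depleted list, of 1500 bp over the start (p-value 1.15e-132), 1350 bp downstream (p-value 1.78e-36) and 1200 bp upstream (p-value 1.81e-35). The site over the start began only 115 bp upstream of it. Olig3 had 6 Pcl3 sites, the most of the 9 genes, covering 6512 bp against 4050 bp of Suz12. Of these, 3 overlapped no Suz12 site, namely 2 of 400 bp (p-values 5.41e-08 and 7.96e-08) and 1 of 750 bp (p-value 1.70e-14). Over the windows of all 9 genes, 5 of the 28 Pcl3 sites shared no base with a Suz12 site, against 23.1% of all Pcl3 sites.

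**Figure D2:**
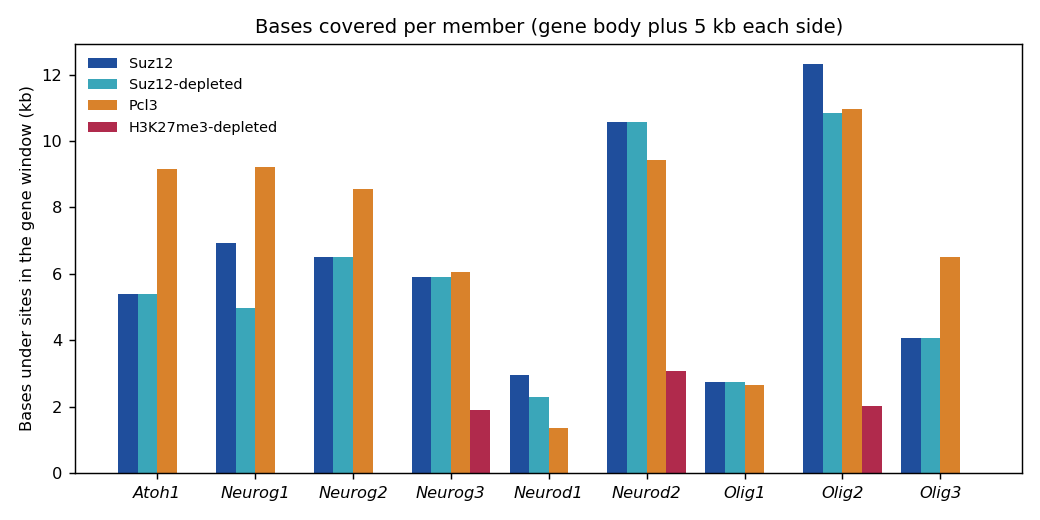
Bases (kb) under the sites of each list in the window of each gene, 1 bar for each list. Pcl3 exceeds Suz12 at Atoh1, Neurog1, Neurog2, Neurog3 and Olig3, Neurod1 has the lowest Pcl3 bar (1350 bp), and H3K27me3-depleted bases appear at Neurog3, Neurod2 and Olig2.

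Pcl3 covered more bases than Suz12 at 5 of the 9 genes, a pattern held by 17.2% of the 3074 genes with both. In total the windows had 63872 bp under Pcl3 and 57360 bp under Suz12. Of the 27 Suz12 sites, 25 shared at least 1 bp with a Pcl3 site, against 44.3% of all Suz12 sites, and the exceptions were the start site of Neurod1 and the 500 bp site of Olig2. Over the whole length of these 27 Suz12 sites, including parts outside the windows, 86.8% of the bases were under Pcl3, against 48.8% over all Suz12 sites. In the other direction 78.5% of the bases of the 28 Pcl3 sites were under Suz12, near the 81.0% over all Pcl3 sites. At the starts, the Pcl3 site reached further downstream than the Suz12 site at all 8 genes with both, by 100 bp (Neurog2 and Olig1) to 2150 bp (Atoh1). Upstream the difference went in both directions, from 1250 bp less at Neurog3 to 6850 bp more at Neurog1. Both extremes compare single joined sites, not the full extent of either protein. At Neurog1 the same stretch held separate Suz12 sites, among them one of 3950 bp centered 7351 bp upstream (p-value 1.27e-246). At Neurog3 a separate Pcl3 site of 2950 bp, centered 1963 bp upstream, extended past the upstream end of the Suz12 site over the start. Differences of 100 bp are smaller than the 400 bp windows in which the authors called sites. No share over other genes is given for these differences, so they do not set the 8 genes apart. The 2 proteins were mapped in different cell lines, and the width of a joined site also depends on the reads in its libraries, so a difference in cell line, depth and extent of binding cannot be told apart here.

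Among the 27 Suz12 sites, 21 were in the depleted list (77.8%), against 64.5% of all Suz12 sites. The 21 had a median −log10 p of 104 (range 19.4 to 307) and widths from 850 to 10500 bp, and the 6 outside had a median of 10.5 (range 7.76 to 20.7) and widths from 500 to 950 bp, where p-values written as 0 are placed at 307. All but 1 of the 6 had a larger p-value than any of the 21. Over the whole list, 84.3% of the 6459 Suz12 sites with p of at most 1e-13 were in the depleted list, and 11.4% of the 2417 with larger p. The binding p-value therefore moved with membership of the depleted list, and its part in which sites of the 9 genes were called depleted was not tested. The authors recomputed it over each joined site, so it depends on width and reads as well as on binding. The paper also states that changes in Suz12 may be harder to detect at less significant peaks, which was not tested here. Since the depleted list repeats the binding p-values, the 21 sites could not be ordered by how much Suz12 they lost.

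**Figure D3:**
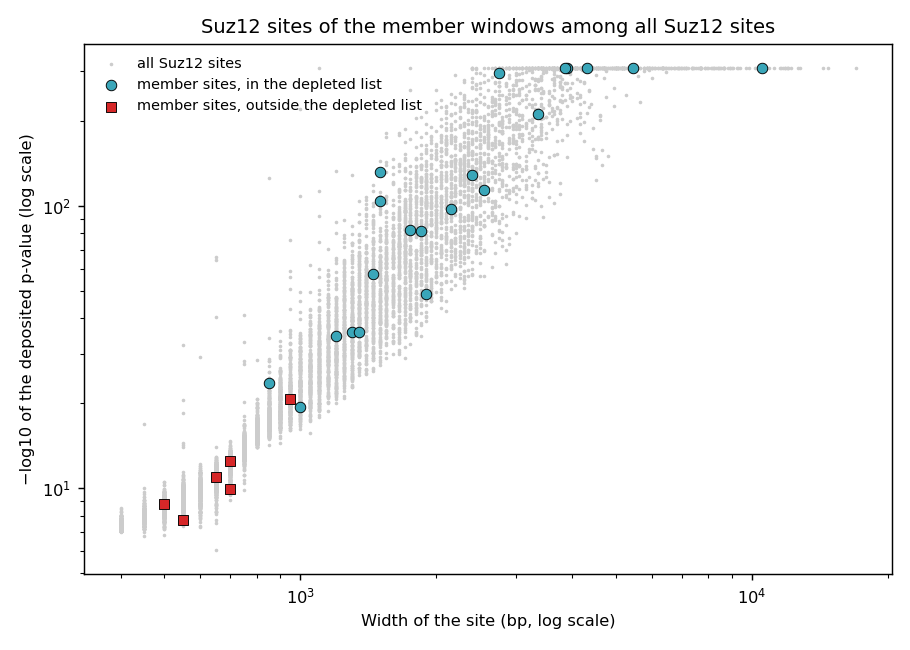
Width in bp (x, log scale) and −log10 of the deposited p-value (y, log scale) of all 8876 Suz12 sites (grey) and of the 27 sites at the 9 genes, in the depleted list (circles) or outside it (squares). P-values written as 0 lie at the top, at 307, with 5 of the 27 among them, and the 6 sites outside the depleted list lie at the lower left, between 500 and 950 bp.

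The Suz12 sites of these genes had small p-values and were wide in comparison with the list. Their median −log10 p was 81.4 (quartiles 22.2 and 172) against 26.2 (12.2 and 74.5), and their median width 1500 bp (975 and 2650) against 1100 bp (700 and 1800). P-values written as 0 occurred at 5 of the 27 sites, those over the starts of Atoh1, Neurog1, Neurog2, Neurod2 and Olig2, and at 4.90% of all Suz12 sites. For Pcl3 the median −log10 p was 30.2 over the 28 sites (quartiles 10.1 and 113) and 16.3 over the list (9.33 and 39.4). These medians moved with the choice of sites: that of Pcl3 was 79.6 with 2 kb flanks and 18.9 with 10 kb flanks, and that of Suz12 was 132 and 61.2. Sites over the 9 starts had a median width of 3850 bp, and the other 18 sites 1325 bp. The corresponding medians for the whole list were 1450 bp at the 3916 sites over a protein-coding start and 850 bp at the other 4960.

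The same sites were relatively poor in CpG. Their median was 3.41 CpG per 100 bp (quartiles 2.22 and 4.55), against 5.41 (4.12 and 7.14) over all Suz12 sites, and 22 of the 27 lay below that median. Over the 500 bp around the center, the medians were 4.60 and 7.00. Among sites at least 1500 bp wide the medians were 4.02 for the 15 sites here and 5.59 for the 3025 in the list, so the difference was also present among wide sites. The sites over starts had a median of 4.93 and the other 18 sites a median of 2.82, against 6.25 and 4.70 in the whole list. The values under 2 comprised non-depleted sites of Neurog1 (0.571, 1.29 and 1.64) and Olig2 (1.20 and 1.26) and a depleted site of Neurod2 (1.42), all in intergenic DNA. In contrast, the 2 kb around the gene starts were not poor in CpG, with a median of 5.25 per 100 bp (3.10 at Neurod1 to 8.25 at Neurog2) against 4.55 at genes with a Suz12 site and 3.05 over all genes.

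**Figure D4:**
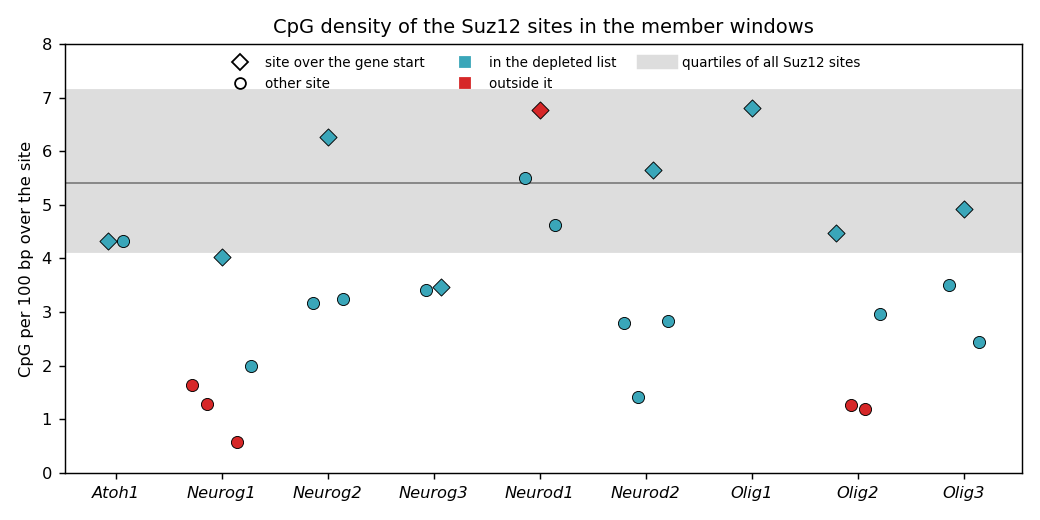
CpG per 100 bp over each Suz12 site (y) in the windows of the 9 genes (x), with diamonds for sites over the gene start, circles for other sites, and color for membership of the depleted list. The band spans the quartiles of all Suz12 sites (4.12 to 7.14) around their median of 5.41, and 22 of the 27 sites lie below that median.

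H3K27me3-depleted sites were found at Neurog3, Neurod2 and Olig2, with 6 sites in all. The central 120 bases of 1 site of each gene are shown to place them, on the gene's strand and with CpG in capitals. The site of Neurog3 lies upstream in an intron of 2010107G23Rik (chr10:61591990-61592109, plus strand), that of Neurod2 in its coding exon (chr11:98189065-98189184, minus strand) and that of Olig2 in intergenic DNA upstream (chr16:91223165-91223284, plus strand).

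Neurog3: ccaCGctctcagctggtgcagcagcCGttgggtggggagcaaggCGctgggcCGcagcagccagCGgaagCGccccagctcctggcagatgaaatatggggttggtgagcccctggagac

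Neurod2: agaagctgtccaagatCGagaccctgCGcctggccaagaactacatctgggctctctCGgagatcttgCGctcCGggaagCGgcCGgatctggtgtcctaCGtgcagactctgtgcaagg

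Olig2: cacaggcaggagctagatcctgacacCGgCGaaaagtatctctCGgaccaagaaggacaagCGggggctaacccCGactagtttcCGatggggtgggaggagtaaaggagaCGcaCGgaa

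At Neurog3 the site was centered 3788 bp upstream of the start. At Neurod2 the 3 sites were centered 5163 bp upstream (1450 bp wide, p-value 1.87e-10), 1837 bp downstream in the coding exon (1150 bp, p-value 1.16e-08) and 8237 bp downstream (1350 bp, p-value 8.53e-09). The coding exon site held 10.8 CpG per 100 bp, the highest of the 6, against a range of 2.67 to 4.73 at the others. At Olig2 the sites were centered 2570 bp upstream (1650 bp, p-value 5.92e-12) and 5320 bp upstream (1350 bp, p-value 1.60e-08), both within the 10500 bp Suz12 site. None of the 6 covered a start. Of the 679 genes with both a Suz12 and an H3K27me3-depleted site in the window, 131 (19.3%) had the latter over the start. The 3 genes here are too few to be set apart from that share. All 6 sites overlapped Suz12-depleted sites, over 82.8% to 100% of their bases, and 86.4% of all H3K27me3-depleted sites did so by at least 1 bp. Chromosome 11, which carries Neurod2, holds 198 of the 678 H3K27me3-depleted sites (29.2%). The paper reports that this chromosome has the highest gene density and the strongest loss of both Suz12 binding and H3K27me3. Whether chromosome copy number differed between the 2 cell populations is not known here. The part of gene density or of any copy number difference in the sites of Neurod2 was not tested. At the other 6 genes no H3K27me3-depleted site was listed in the window, although all had Suz12-depleted sites. The nearest was 43977 bp from the start at Neurog1, and for Olig1 those of Olig2 were the nearest, at 45964 bp. A site that is not listed did not pass the cutoff, which does not show that H3K27me3 was equal in the 2 populations.

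The related gene lists showed the same marks to different extents. Of 10 other neural bHLH genes, 9 had Suz12 and Suz12-depleted sites, 8 had Pcl3 sites and 2 had H3K27me3-depleted sites. Bhlhe23, which acts in retinal bipolar neurons, had the widest of the Suz12 sites with p written as 0 among these (3150 bp) and an H3K27me3-depleted site (p-value 3.44e-10). Nhlh2, a factor of hypothalamic neurons, had the other H3K27me3-depleted site (p-value 1.14e-11). Of the partners and inhibitors of these factors, the E proteins and Id proteins, 5 of 7 genes had Suz12 sites and 4 had depleted and Pcl3 sites, with the strongest Suz12 site at Id4 (p-value 8.05e-231).

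In the Notch pathway, which acts upstream of the proneural genes, 8 of 9 ligands and receptors had Suz12 sites, 6 had depleted sites, 5 had Pcl3 sites and 1 had an H3K27me3-depleted site. The strongest Suz12 site was at the ligand Dll4 (4100 bp, p written as 0), and the H3K27me3-depleted site was at the ligand Dll1 (p-value 2.17e-10). All 8 Notch effectors had Suz12 and Suz12-depleted sites, 6 had Pcl3 sites, and 1, Hes7 of the somite clock, had an H3K27me3-depleted site (p-value 5.14e-14). Hes7 lies on chromosome 11, as Neurod2 does. The strongest Suz12 site of this list was at Hes5 (p-value 1.86e-202).

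The differentiated cells were represented by genes of neurons and of oligodendrocytes. Of 8 neuronal differentiation genes, 5 had Suz12 sites, 3 depleted sites and 1 a Pcl3 site, the strongest Suz12 site lying at Rbfox3 (4150 bp, p written as 0), whose body spans 421838 bp. Of 7 oligodendrocyte genes, 4 had Suz12 sites, 3 depleted sites and 3 Pcl3 sites, and the strongest, at Nkx2-2, was 12200 bp wide with p written as 0. Nkx2-2 is itself a patterning transcription factor rather than a myelin gene. Neither list had an H3K27me3-depleted site. Of 9 genes active in ESCs, 7 had no site in any list, Pou5f1 and Nanog among them. The other 2, Esrrb and Actb, both had Suz12 and Suz12-depleted sites, and Esrrb also had a Pcl3 site. Neither of these 2 genes had an H3K27me3-depleted site. The strongest Suz12 site of Esrrb, a gene of 160512 bp, had a p-value of 6.61e-229, and the Suz12 site of Actb had 1.03e-12. These are counts of named genes, and differences between the lists were not tested.

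**Figure D5:**
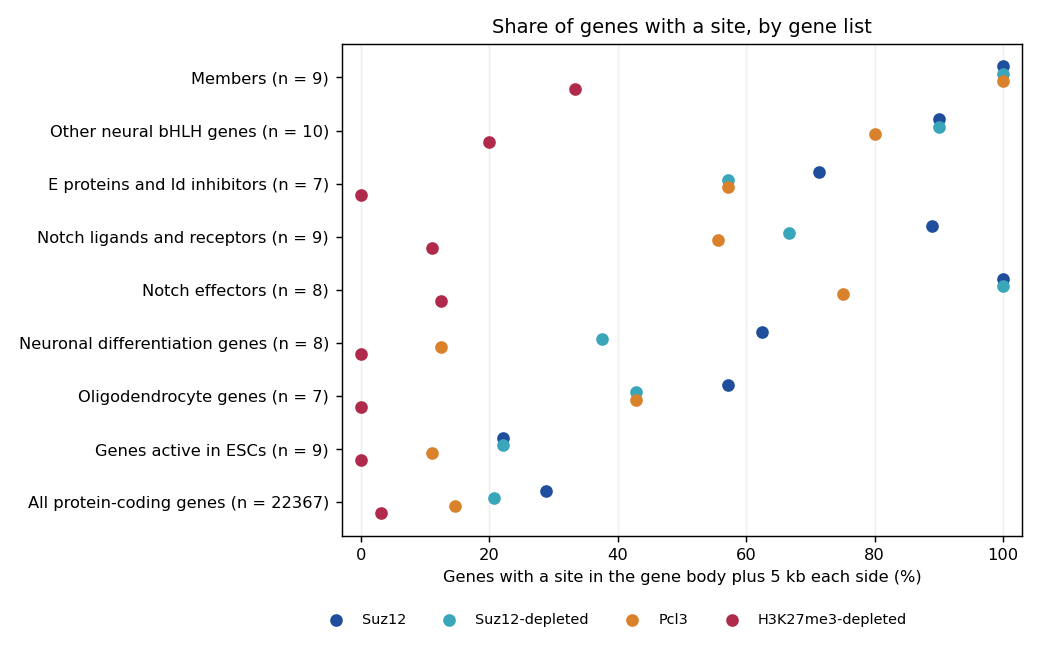
Percent of the genes of each list with at least 1 site of each kind in the gene body plus 5 kb on each side, 1 point for each kind of site, with the number of genes in brackets and all 22367 protein-coding genes at the bottom. The 9 genes described here are labelled Members and stand at 100% for Suz12, Suz12-depleted and Pcl3 sites and at 33.3% for H3K27me3-depleted sites.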

How the data were processed

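The authors aligned single-end 30-nucleotide reads uniquely to mm9 with Bowtie, scaled paired libraries to equal background, tested 400 bp windows with the Skellam distribution (cutoff 1e-07) and merged overlapping ones. Each of the 4 deposited lists gives a site's position and its p-value, and no other measured value was used. Equal scaling lets a difference in chromosome copy number enter the depleted lists, and unique alignment leaves out repeats. Whether the Pcl3-TAP libraries were pooled is not given in the sources used here.

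From the lists, overlaps of at least 1 bp with GENCODE vM1 gene windows, covered bases and CpG per 100 bp of mm9 were computed. Positions are 1-based. A p-value written as 0 was placed at the largest −log10 value of its list. The members and gene lists were chosen with earlier results of these data known. All 9 members are named, and of each other list the gene with the strongest Suz12 site (smallest p-value, then widest) and those with an H3K27me3-depleted site. Actb, Pou5f1 and Nanog fall outside this rule and were named after their values were seen. Map2 was matched as Mtap2 through a RefSeq synonym. Alternatives were other windows, site centers, p-values of at most 1e-12, merged neighbouring sites and CpG over 500 bp. Widths of at least 1500 bp and the split by gene start were added after the data were seen. The overlap function, tested on simulated data, differed from a search of all pairs at 0 of 600 windows. Python 3.11.15, numpy 2.4.6, pandas 2.3.3, pysam 0.24.0 and matplotlib 3.10.9 were used.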

Additional observations from a re-analysis of the deposited data

How the results depend on the processing

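Of 46 recomputed values, 38 stayed within 1.5 times the reported count or within the 95% binomial interval of the reported median. The other 8 included every recomputed share of Suz12 bases under Pcl3, a measure with no interval here. The intervals of the medians treat sites of the same gene as independent, and they are wide for strength. The median −log10 p ranged from 18.9 (10 kb flanks) to 79.6 (2 kb flanks, and p of at most 1e-12) for Pcl3, with 61.8 after merging. For Suz12 it ranged from 61.2 (10 kb flanks) to 132 (2 kb flanks), with 126 after merging. All 9 genes had Suz12 and Suz12-depleted sites under every window, overlap rule and p-value limit tried, and Pcl3 sites under all but the 2 kb around the gene start, where 8 did. Under these alternatives, 23.1% to 32.1% of all protein-coding genes had a Suz12 site, 16.4% to 23.1% a Suz12-depleted site and 10.3% to 16.4% a Pcl3 site. The count of genes with an H3K27me3-depleted site fell from 3 to 1 with no flank (Neurod2) and to 1 with p of at most 1e-12 (Neurog3), where 2.28% and 0.630% of all genes had one. The share of Suz12 bases under Pcl3 was 91.0% with 2 kb flanks, 86.3% with 10 kb flanks, 84.0% with p of at most 1e-12 and 88.2% after merging sites less than 1 kb apart. Merging raised the median Suz12 width to 2675 bp, as joined sites are wider by construction, and the CpG density over 500 bp was 4.60 per 100 bp. No paired analysis was possible because each condition has 1 library. The depleted calls compare 1 Pcl3 shRNA library with 1 scramble library, without replicates. The lists hold no reads, so what their depth limits cannot be stated for a single site.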

Other observations

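Beyond the windows, the neighbourhoods of the genes differed. At Neurod2, 2 further H3K27me3-depleted sites were listed within 50 kb of the gene, 1750 bp wide and centered 10837 bp downstream of the start (p-value 2.47e-10), and 1300 bp wide and centered 19988 bp upstream (p-value 8.68e-10). At Neurog1, the nearest H3K27me3-depleted site was 1100 bp wide (p-value 1.93e-08) and centered 44526 bp upstream, in a neighbourhood with 10 Suz12 sites within 50 kb, more than at 98.0% of the genes with a Suz12 site. Atoh1 had 2 Suz12 sites within 50 kb, both of them inside its window.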
